A study of Homo sapiens with 9 samples.

Results

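The necroptosis genes described here are 6 of the 59609 genes in the deposited count table, taken by gene symbol: ZBP1, RIPK1, RIPK3, MLKL, FADD and CASP8. They were measured by RNA sequencing of the human pancreatic cancer line SUIT2 in 9 libraries of 3 per group. The groups were cells given human interferon beta (IFNβ, a type I interferon) at 100 U/mL for 6 h, cells given the same dose for 24 h, and cells labelled control treated. All cells were seeded at 500000 per well of 6-well plates in 2 mL of medium 24 h beforehand, and no genotype or strain separates the groups. The labels name neither a time nor a vehicle for the controls and do not say whether replicates were cultured separately. The spread behind each p-value is therefore that between these libraries and may be technical. The comparisons ask how the transcript levels stand after each duration of IFNβ.

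Necroptosis is a lytic form of cell death. ZBP1 senses Z-form nucleic acids and, like the death receptors through RIPK1, engages the kinase RIPK3, which phosphorylates MLKL so that it assembles in and ruptures the plasma membrane. FADD recruits CASP8 to RIPK1, and active CASP8 cleaves RIPK1 and RIPK3 and so holds necroptosis back while it can start apoptosis. Type I interferon is known to induce ZBP1 and MLKL transcripts in several cell types. Apart from that induction, all of this concerns proteins, whereas only transcripts were measured here.

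At 6 h every one of the 6 transcripts was higher than in control, from 1.17-fold for FADD to 145-fold for ZBP1, where 17.5% of the 16964 genes tested were called higher. By 24 h they had separated: ZBP1 and RIPK3 were still above control, RIPK1 and CASP8 did not pass the test, and MLKL and FADD were slightly lower (50.0% of all genes were called in either direction), although in the authors' normalized table MLKL and FADD stood slightly above control without passing. Against 6 h, 5 of the 6 were lower at 24 h (30.6% of all genes were) and RIPK3 did not pass. Of these 5, ZBP1 passed the low-count filter only through its 6 h libraries. Library totals were 16799278 to 37420457 estimated counts at 6 h, 25270387 to 40384407 at 24 h and 15101734 to 19632741 in control. The cells carried the epithelial keratins in all groups, with 8 ductal markers summing to 5464 to 5771 CPM at 6 h, 5359 to 5484 at 24 h and 4838 to 4902 in control (CPM is counts scaled to a common library total with TMM factors). Of 12 leukocyte markers, PTPRC, CD3D, CD3E, MS4A1, TYROBP and NKG7 had 0 counts in every library. The summed leukocyte list stood at 372 to 389 CPM at 6 h, 404.5 to 426 at 24 h and 258 to 261 in control, nearly all of it LYZ and CD68, and its part in the results was not tested. In bulk RNA a change in the number of cells of a kind and a change in RNA per cell cannot be told apart.

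ZBP1, the sensor of the group, lies on chromosome 20 (57603846 to 57620577, minus strand, hg38). The libraries held 163, 282 and 407 counts at 6 h, 29, 9 and 19 at 24 h, and 1, 1 and 2 in control. In CPM these were 10.6, 13.0 and 11.8 at 6 h, 0.674, 0.333 and 0.516 at 24 h, and 0.060, 0.050 and 0.130 in control. The transcript was thus close to absent in control, abundant enough to count well at 6 h and low again at 24 h, and no pair of groups overlapped. The ratio of summed counts, adjusted for depth, was 155 at 6 h against control (95% exact interval 60.2 to 569) and 6.92 at 24 h against control (2.56 to 26.3). These intervals cover counting error only, as no molecular identifiers are named in the labels. edgeR's quasi-likelihood test gave log2 fold changes of 7.18 (SE 0.29, Benjamini-Hochberg adjusted p = 1.29e-11) at 6 h, 2.70 (SE 0.51, 0.000369) at 24 h, and -4.47 (SE 0.18, 8.21e-12) for 24 h against 6 h. ZBP1 passed the low-count filter only through its 6 h libraries, and with 24 h and control libraries alone it was not tested. In the authors' normalized table with a pseudocount of 1, which understates low genes, it stood at 3.55, 0.57 and -2.97 in the same comparisons.

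RIPK3, the kinase that activates MLKL, lies on chromosome 14 (24336025 to 24340023, minus strand). It had 3.70, 3.65 and 3.75 CPM at 6 h, 3.18, 2.93 and 4.02 CPM at 24 h, and 1.26, 1.81 and 0.978 CPM in control. All 6 treated libraries lay above all 3 controls, and the 6 h and 24 h libraries overlapped. The log2 fold change was 1.42 (SE 0.21, edgeR adjusted p = 5.85e-05) at 6 h and 1.29 (SE 0.20, 6.44e-05) at 24 h. Between the times it was -0.13 (SE 0.16, adjusted p = 0.529), and its sign turned under plain library size scaling (0.091) and in the authors' normalized table (0.10), again without passing. Relative to the median of all genes RIPK3 stood at -0.11 under each of these scalings. Control counts were 21, 36 and 15, so its error is the widest after that of ZBP1. RIPK3 shares 1359 bases with the lncRNA AL096870.1 on the same strand, which had at most 1.43 estimated counts in any library.

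MLKL, which encodes the membrane-rupturing effector, lies on chromosome 16 (74671855 to 74700961, minus strand). It had 108, 107 and 115 CPM at 6 h, 26.8, 27.1 and 26.8 CPM at 24 h, and 29.9, 32.0 and 31.2 CPM in control. The 6 h libraries were far above the rest, and the 24 h libraries lay just below the controls without overlap. MLKL rose 3.55-fold at 6 h (log2 1.83, SE 0.042, edgeR adjusted p = 9.11e-15), and between 24 h and 6 h it fell by 2.04 on the log2 scale (SE 0.039, 1.88e-15). Against control at 24 h edgeR called it lower, at -0.21 (SE 0.047, 0.00172), whereas in the deposited normalized table it stood at 0.23 (adjusted p = 0.234).

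CASP8, the protease that cleaves the RIP kinases, lies on chromosome 2 (201233443 to 201287712, plus strand). It had 115, 119 and 126 CPM at 6 h, 45.8, 45.7 and 45.5 CPM at 24 h, and 41.3, 42.3 and 44.4 CPM in control. As with MLKL, the 6 h libraries stood apart, while the 24 h libraries were only marginally above the controls. It rose 2.83-fold at 6 h (log2 1.50, SE 0.043, edgeR adjusted p = 1.53e-13), and 24 h against 6 h gave -1.40 (SE 0.039, 1.30e-13). CASP8 did not pass at 24 h against control, with 0.10 (SE 0.045, adjusted p = 0.0799). It did pass, at 0.10, when 6 h library 3 was left out of the shared fit (0.0366), and in the deposited normalized table it was called higher at 0.53 (0.00495). The median of all genes was 0.37 in that table. Relative to the all-gene median CASP8 stood at 0.15 there and at 0.094 with TMM.

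FADD, the adaptor that brings CASP8 to the complex, lies on chromosome 11 (70203296 to 70207391, plus strand). It had 97.8, 98.7 and 90.8 CPM at 6 h, 66.8, 65.3 and 69.9 CPM at 24 h, and 80.5, 81.7 and 82.1 CPM in control. None of the groups overlapped, and the differences were small. The log2 fold change was 0.23 (SE 0.041, edgeR adjusted p = 0.000413) at 6 h, where it no longer passed under plain library size scaling (0.091, 0.0904) or in the authors' normalized table (0.39, 0.119). Against control at 24 h it was -0.27 (SE 0.041, 4.59e-05), but 0.16 (0.399) in the deposited table, and against 6 h it was -0.50 (SE 0.039, 2.82e-08). Genes commonly used as level references moved by similar amounts at 6 h, with SDHA at 0.21 (SE 0.030) and HPRT1 at 0.23 (SE 0.055), calls also lost under both of those scalings. The part of library composition in the change of FADD was not tested. FADD overlaps the antisense lncRNA AP000879.1 over 1101 bases, which had 1 to 21 counts per library.

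RIPK1, the kinase and scaffold that joins death receptors to RIPK3, lies on chromosome 6 (3063991 to 3115188, plus strand). It had 40.6, 40.9 and 44.0 CPM at 6 h, 28.1, 28.2 and 27.6 CPM at 24 h, and 24.8, 26.2 and 27.6 CPM in control. The 6 h libraries were all higher than the others, and 24 h overlapped control. RIPK1 rose 1.60-fold at 6 h (log2 0.68, SE 0.052, edgeR adjusted p = 4.72e-08), and 24 h against 6 h gave -0.59 (SE 0.047, 3.73e-08). Its 24 h value against control was 0.10 (SE 0.052, adjusted p = 0.148), although it passed with plain library size scaling (0.17, 0.0124) and in the deposited table (0.52, 0.00588). The lncRNA AL031963.3 overlaps RIPK1 on the opposite strand over 851 bases, with 0 to 11 counts per library. The sources used here give no strand setting, so reads of these overlapping pairs could not be told apart.

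**Figure D1:**
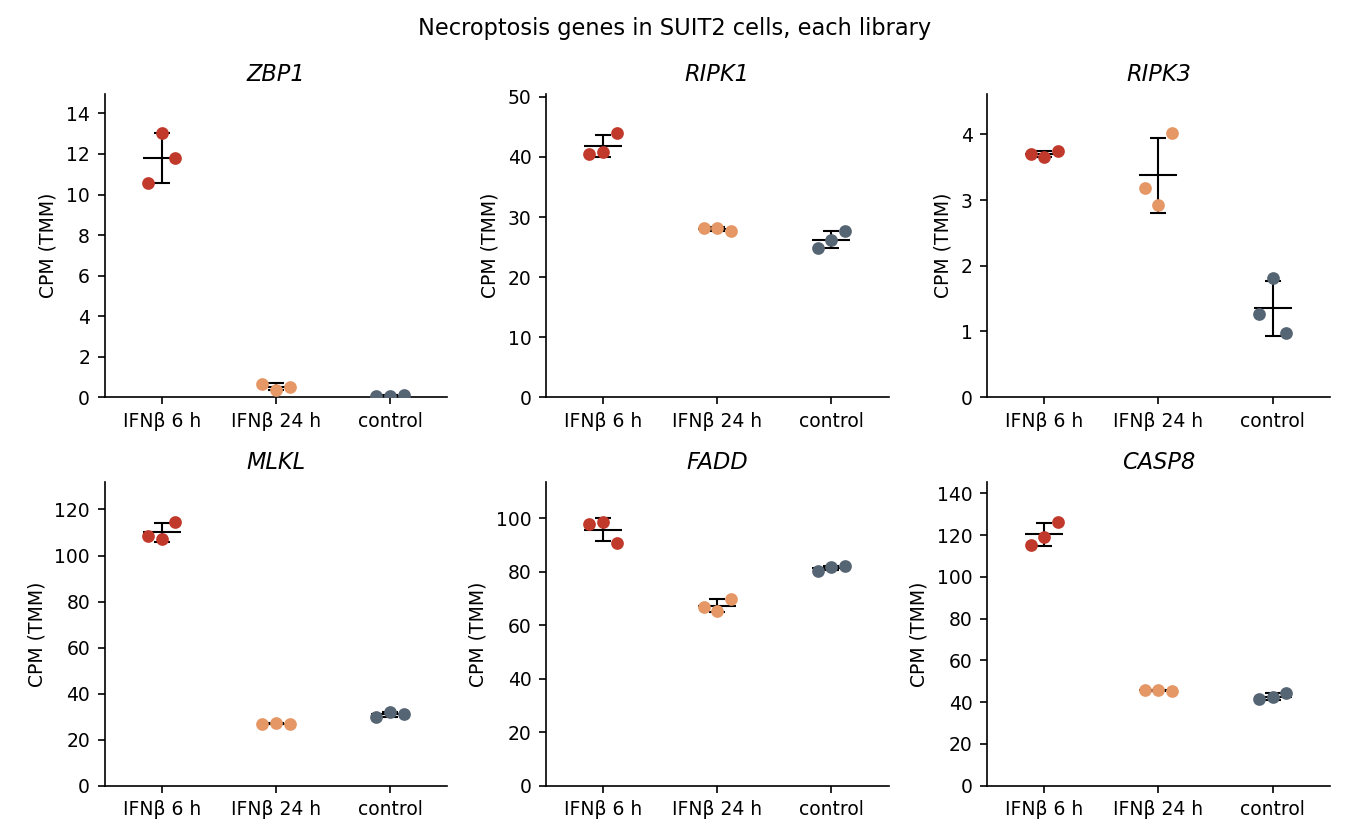
CPM (TMM-scaled, linear axis from 0) of the 6 necroptosis genes in every library, with the 6 h and 24 h IFNβ groups and control; points are libraries and bars are mean ± SD (n = 3). ZBP1, MLKL and CASP8 were far lower at 24 h than at 6 h, whereas RIPK3 stayed at 2.93 to 4.02 CPM at 24 h against 0.978 to 1.81 in control.

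At 6 h 6 of 6 members were called higher, where 17.5% of all genes were. ZBP1, MLKL, CASP8 and RIPK3 were at least 2-fold higher, as were 3.75% of all genes; ZBP1 had been kept by the filter only through its 6 h level. The median log2 fold change was 1.46 for the 6 genes and -0.0053 for all genes tested. At 24 h against control 2 members were called higher and 2 lower, where 24.7% and 25.3% of all genes were, so the members' share of calls was near the background of 50.0%. Their median was 0.10, against 0.0048 for all genes. For 24 h against 6 h, 5 of 6 members were lower, where 30.6% of all genes were, and ZBP1, MLKL and CASP8 were at least 2-fold lower, as were 3.57%. The medians there were -0.995 for the members and -0.019 for all genes. Both comparisons with control share the same 3 control libraries, and the members were chosen with earlier results known, so these shares are descriptions.

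**Figure D2:**
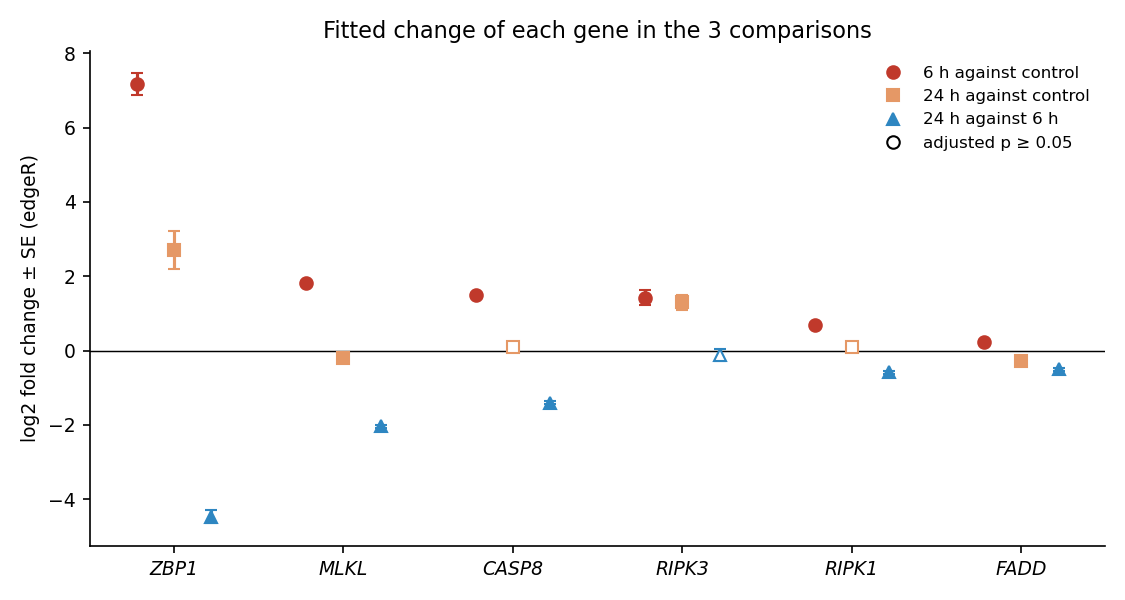
Fitted log2 fold change ± SE (edgeR) of each gene for 6 h against control (circles), 24 h against control (squares) and 24 h against 6 h (triangles), with open symbols for adjusted p of at least 0.05. RIPK3 is the member whose 24 h value, 1.29, lies close to its 6 h value of 1.42; the values of MLKL and FADD at 24 h against control are below 0 here and above 0 in the deposited normalized table.

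The share of the 6 h excess over control that was left at 24 h separated RIPK3 from the other members. With TMM scaling 86.3% of the RIPK3 excess remained, against 11.3% for RIPK1, 3.86% for CASP8 and 3.64% for ZBP1, while MLKL and FADD were below their control level. Among 8 interferon-induced genes listed as a check of the treatment, the share ran from 7.41% for IFIT2 to 176% for IFI6. IFIT1, an inhibitor of viral translation, kept 30.1%, at 478 ± 9.23 CPM at 24 h and 1575 ± 35.3 CPM at 6 h (SD, n = 3 each). ZBP1, CASP8, MLKL and FADD thus lay below the lowest of the check genes, and RIPK3 and RIPK1 lay within their range.

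The scaling of a library drops out of the ratio of 2 genes in the same library, so ratios per kilobase of exon were compared as well. MLKL stood at 1.16 ± 0.0271 times the level of CASP8 at 6 h, 0.750 ± 0.00408 at 24 h and 0.926 ± 0.0338 in control (SD, n = 3 each). Relative to RIPK1, MLKL stood at 1.96 ± 0.0240 at 6 h, 0.715 ± 0.00588 at 24 h and 0.881 ± 0.0358 in control. By both ratios MLKL gained on its partners at 6 h and lay under the control ratio at 24 h, in all 3 libraries of each group. Relative to FADD, MLKL stood at 0.373 ± 0.0314 at 6 h, 0.129 ± 0.00516 at 24 h and 0.123 ± 0.00330 in control, where 24 h and control overlapped. The ratio of CASP8 to FADD was 0.320 ± 0.0295 at 6 h, 0.173 ± 0.00647 at 24 h and 0.133 ± 0.00375 in control, without overlap. CASP8 stood at 14.6 ± 0.582 times RIPK3 at 6 h, 6.19 ± 0.996 times at 24 h and 15.2 ± 4.98 times in control. The 6 h and control ratios overlapped, and those at 24 h lay under both. The ratio of MLKL to FADD was described without a test, and for the other ratios, in every pair of groups without overlap, the two-sided exact permutation p was 0.10, the smallest that 3 against 3 libraries allow, so none can pass 0.05; over the 12 tests the Benjamini-Hochberg value was 0.109. For CASP8 to RIPK3 at 6 h against control it was 0.80.

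**Figure D3:**
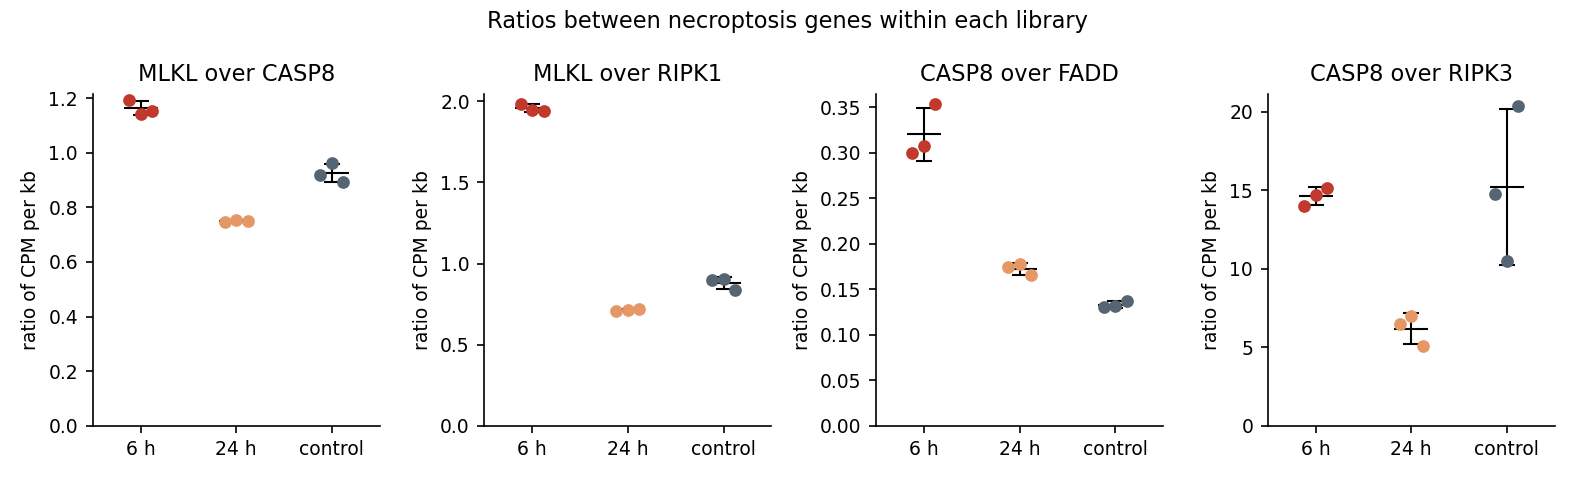
Ratios of CPM per kilobase between pairs of necroptosis genes in each library (points), with mean ± SD (n = 3) for the 6 h, 24 h and control groups; axes start at 0. The 24 h libraries have the lowest ratios of MLKL to CASP8 and to RIPK1, 0.746 to 0.754 and 0.709 to 0.721, and the lowest ratio of CASP8 to RIPK3.

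Levels of different members were compared as CPM per kilobase of merged exons in GENCODE 29, which may differ from the annotation the authors counted on. FADD was the highest member throughout, at 52.0 ± 2.37 at 6 h, 36.6 ± 1.28 at 24 h and 44.2 ± 0.461 in control. At 6 h MLKL (19.3 ± 0.711) and CASP8 (16.6 ± 0.780) came next, then RIPK1 (9.88 ± 0.445), ZBP1 (2.19 ± 0.227) and RIPK3 (1.14 ± 0.0148), with no neighbours overlapping. At 24 h the order was RIPK1 (6.61 ± 0.0760), CASP8 (6.30 ± 0.0234), MLKL (4.73 ± 0.0284), RIPK3 (1.04 ± 0.175) and ZBP1 (0.0939 ± 0.0315). In control RIPK1 (6.20 ± 0.341) and CASP8 (5.89 ± 0.218) overlapped, followed by MLKL (5.45 ± 0.189), RIPK3 (0.415 ± 0.130) and ZBP1 (0.0148 ± 0.00809). Per kilobase MLKL thus stood above RIPK1 and CASP8 at 6 h and below them in the other groups, and RIPK3 was the scarcest member at 6 h. The order of MLKL depends on the division by exon length. In CPM CASP8 was above MLKL at 6 h (115.3 to 126.5 against 107.2 to 114.7). MLKL was above RIPK1 in control (29.9 to 32.0 against 24.8 to 27.6 CPM).

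Promoter windows of 250 bases before to 50 after an annotated start were taken from RefSeq (GRCh38.p14) for CASP8, RIPK1, MLKL and FADD, and those of ZBP1 and RIPK3 were not used here. They are shown because interferon-activated factors bind a known element, the interferon-stimulated response element (ISRE), searched here on both strands as its core of GAAA, any 2 bases and GAAA again. The first CASP8 window (chr2:201233213-201233512, plus strand) holds an ISRE core in capitals, on the reverse strand, beginning 3 bases before the annotated start. The RIPK1 window at an internal start (chr6:3068128-3068427, plus strand), 4387 bases into the gene, holds an ISRE core in capitals, on the reverse strand, beginning 67 bases before that start. The MLKL window (chr16:74700813-74701112, minus strand, printed 5′ to 3′ on that strand) holds none.
CASP8: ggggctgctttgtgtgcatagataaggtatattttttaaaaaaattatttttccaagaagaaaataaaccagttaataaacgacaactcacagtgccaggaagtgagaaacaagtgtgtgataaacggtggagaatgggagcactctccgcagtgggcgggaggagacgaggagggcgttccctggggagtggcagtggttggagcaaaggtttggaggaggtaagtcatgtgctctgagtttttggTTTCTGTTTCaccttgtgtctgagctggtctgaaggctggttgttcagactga
RIPK1: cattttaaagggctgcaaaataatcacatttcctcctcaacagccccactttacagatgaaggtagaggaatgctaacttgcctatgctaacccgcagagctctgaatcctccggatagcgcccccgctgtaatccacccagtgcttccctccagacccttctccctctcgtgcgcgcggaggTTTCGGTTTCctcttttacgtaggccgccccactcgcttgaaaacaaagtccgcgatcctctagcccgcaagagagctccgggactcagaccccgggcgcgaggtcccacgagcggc
MLKL: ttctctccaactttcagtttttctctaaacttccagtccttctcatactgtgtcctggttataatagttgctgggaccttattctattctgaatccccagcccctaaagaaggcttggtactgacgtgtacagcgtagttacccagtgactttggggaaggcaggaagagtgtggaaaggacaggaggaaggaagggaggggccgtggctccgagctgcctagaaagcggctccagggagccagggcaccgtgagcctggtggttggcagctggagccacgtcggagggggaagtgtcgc
The window at the upstream start of RIPK1, the FADD window and the other 2 CASP8 windows hold no match, and another RIPK1 window overlaps the printed one and holds the same ISRE match. Of 35116 RefSeq windows, 3.57% hold the ISRE core. Among tested genes with a window, 4.05% have the ISRE core, and among those called at least 2-fold higher at 6 h 27.5% do (103 of 375). MLKL rose 3.55-fold with no match in its window and RIPK1 1.60-fold with a match at an internal start. A match is only a run of letters, and its absence from a window says nothing of sites elsewhere.

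Of 14 listed receptors, ligands and adaptors that lead into necroptosis, 12 were tested. At 6 h 9 were higher, where 17.5% of all genes were, with 1 lower and 2 not passed, and their median log2 fold change was 0.44, against 1.46 for the members. TLR3, a receptor for double-stranded RNA, rose to 120 ± 3.68 CPM at 6 h, against 5.55 ± 0.689 CPM in control (SD, n = 3 each), 4.45 on the log2 scale (SE 0.063). Its adaptor TICAM1, which carries the same RHIM motif as RIPK1, RIPK3 and ZBP1, rose by 1.15 (SE 0.039). The ligand TNFSF10, known as TRAIL, rose by 3.44 (SE 0.041) and its decoy receptor TNFRSF10D fell, at -1.16 (SE 0.067). TNF and FASLG, ligands of death receptors, had at most 1 count in any library. By 24 h, against control, 3 of the 12 were higher, near the 24.7% of all genes. Another 6 were lower, where 25.3% of all genes were, and 3 did not pass. The deposited table gave 5 higher and 1 lower, and there 96.5% of all called genes were higher. With TMM, TLR3 was at 2.56 (SE 0.072) and TNFSF10 at 1.41 (SE 0.044) at 24 h. For 24 h against 6 h 0 of 12 were higher and 9 lower, where 30.6% of all genes were lower.

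Of 22 tested genes that regulate RIPK1 or CASP8, 12 were higher at 6 h, where 17.5% of all genes were. In the same list 1 was lower and 9 did not pass, and the list median was 0.26. With library size as the only scaling 10 were higher and 5 lower. CASP10, a caspase related to CASP8, rose by 1.72 (SE 0.10). RBCK1 and RNF31, subunits of the linear ubiquitin ligase that modifies RIPK1, rose by 1.72 (SE 0.044) and 0.99 (SE 0.055). BIRC3, a ubiquitin ligase for RIPK1, rose by 1.63 (SE 0.054). SHARPIN, the remaining subunit of the linear ubiquitin ligase, and OTULIN, which removes linear chains, did not pass, at 0.045 (SE 0.053) and 0.045 (SE 0.044). CFLAR, which encodes the CASP8 partner cFLIP, was higher at 6 h at 0.46 (SE 0.032) and called lower at 24 h against control at -0.53 (SE 0.032), but its call at 24 h was lost in the deposited table (-0.092). At 24 h 10 were higher, 5 lower and 7 not passed, where 24.7% of all genes were higher and 25.3% lower. The deposited table called 15 higher and 0 lower, and there 96.5% of all called genes were higher. For 24 h against 6 h 13 were lower, where 30.6% of all genes were, and 3 higher. With library size only these counts were 9 and 9.

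Cofactors of MLKL and genes of membrane repair had small median changes. Of 21 tested, 11 were higher, where 17.5% of all genes were, with 1 lower and 9 not passed at 6 h. Their median log2 fold change was 0.13. With library size as the only scaling 5 were higher and 7 lower, with a list median of -0.015 where that of all genes was -0.14. RAB27B, a small GTPase of vesicle release, rose by 0.91 (SE 0.078) at 6 h, and ITPK1, an inositol phosphate kinase whose products activate MLKL, by 0.50 (SE 0.034). At 24 h 3 were higher and 10 lower, where 24.7% and 25.3% of all genes were. The deposited table gave 10 higher and 0 lower, and there 96.5% of all called genes were higher. The 24 h list median was -0.091 with TMM and 0.34 in the deposited table, under the all-gene medians of 0.0048 and 0.37.

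ZBP1 acts beside other nucleic acid sensors and ADAR, the RNA-editing enzyme that restrains it. Of 13 tested genes of this list, 12 were higher at 6 h, where 17.5% of all genes were, and 1 was lower. Their median was 2.93. At 24 h 11 were higher and 2 lower, where 24.7% and 25.3% of all genes were. ADAR rose by 2.13 (SE 0.032) to 1333 ± 33.3 CPM at 6 h and was at 1.31 (SE 0.031) at 24 h, while ZBP1 was at 2.70 (SE 0.51) then. IFIH1 and DDX58, cytoplasmic RNA helicases, rose by 5.92 (SE 0.056) and 5.85 (SE 0.058) at 6 h. At 24 h against 6 h 11 of the 13 were lower and 0 higher, where 30.6% of all genes were lower.

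**Figure D4:**
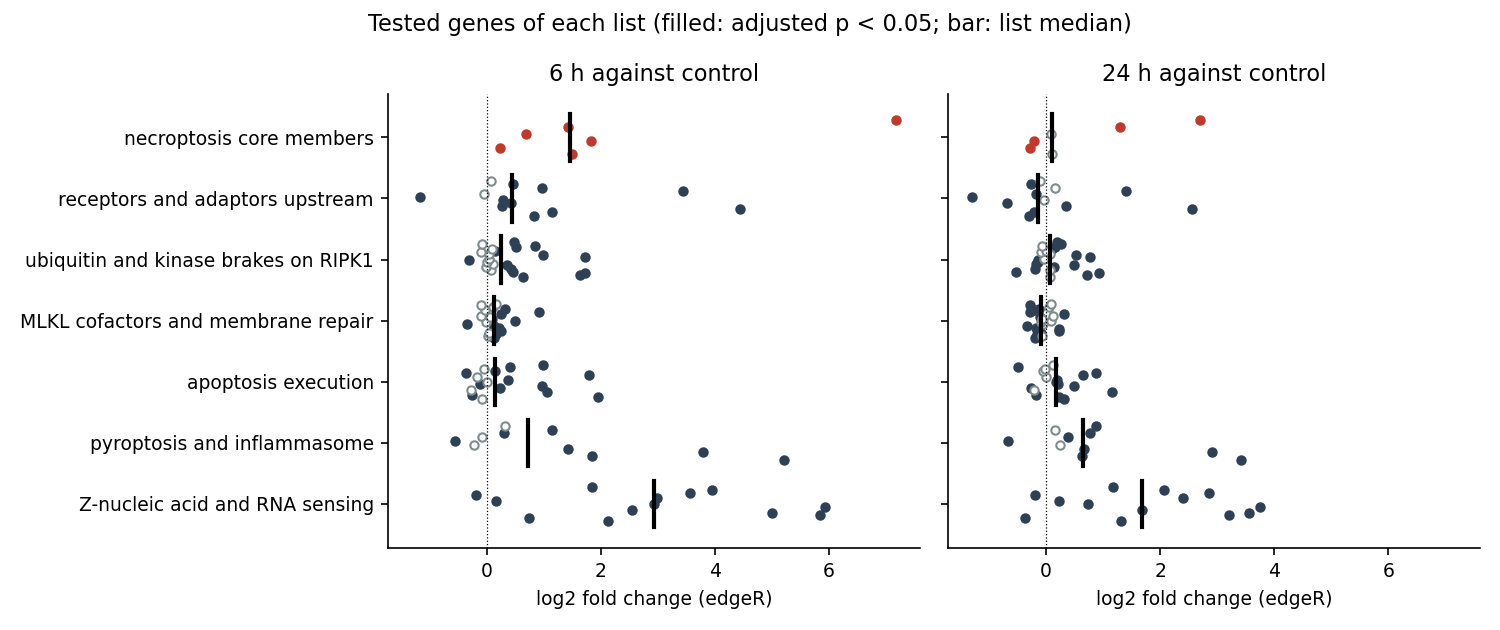
Log2 fold change (edgeR, TMM) of every tested gene of each list, for 6 h against control and 24 h against control; filled points have an adjusted p under 0.05, and bars are list medians. The necroptosis members (top row) have a median of 1.46 at 6 h and 0.10 at 24 h; in the deposited normalized table the 24 h medians of the receptor and MLKL-cofactor lists lie above 0, at 0.28 and 0.34, and below the all-gene median of 0.37, as all genes are shifted there.

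The share of calls in each direction moved with the scaling in all 3 comparisons. Of genes called at 24 h, 49.4% were higher with TMM, 64.1% under plain library size scaling and 96.5% in the authors' normalized table, whose all-gene median was 0.37 (0.0048 and 0.082 under the other scalings). At 6 h the shares were 53.2%, 21.2% and 88.3%, with medians of -0.0053, -0.14 and 0.13. For 24 h against 6 h they were 46.6%, 76.9% and 83.5%, with medians of -0.019, 0.20 and 0.22. Relative to the median of all genes, MLKL stood at -0.21 with TMM and -0.15 in the deposited table at 24 h against control. FADD stood at -0.28 and -0.21, CASP8 at 0.094 and 0.15, and RIPK1 at 0.090 and 0.14. Relative to that median the directions of these genes were thus the same in both.

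**Figure D5:**
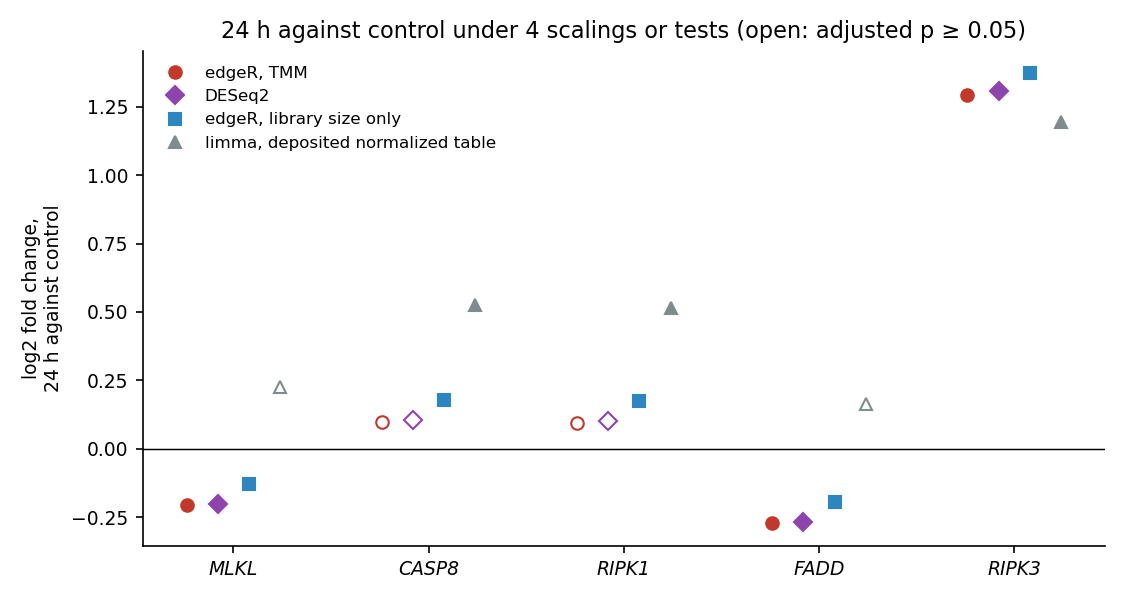
Log2 fold change of 24 h against control for 5 necroptosis genes under edgeR with TMM, DESeq2, edgeR with library size only and limma on the deposited normalized table; open symbols have an adjusted p of at least 0.05. MLKL and FADD lie below 0 under the first 3 and above 0 in the deposited table (0.23 and 0.16), while RIPK3 lies at 1.19 to 1.37 under all 4.

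By a fixed measure of likeness, the root mean square difference in log2 CPM from the control mean over 9 libraries, the genes nearest to each member were found among 11488 genes of at least 5 CPM. Nearest to CASP8 were NFE2L3 (0.049), RNF19B (0.077) and EHD4 (0.10), and to RIPK1 CNDP2 (0.047), BIRC2 (0.051) and PARP4 (0.057). MLKL was nearest to GNB4 (0.13), SERPINB9 (0.16) and LYSMD2 (0.17), and RIPK3 to SHISA5 (0.24), LIPA (0.25) and TAPBPL (0.25). FADD was nearest to S100A11 (0.032), PLOD3 (0.032) and BCL2L1 (0.034), and ZBP1 only distantly to DDX58 (0.81), CD274 (0.86) and GBP1 (0.86).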

How the data were processed

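Per the labels' protocols, total RNA was extracted with a column kit and sequenced on an Illumina HiSeq 3000. The tools were STAR 2.7.8a and Partek with build hg38, per the submitters' processing notes; the sources used here give no annotation release, counting or strand settings. The authors deposited estimated counts per gene (78.0% whole), rounded here to whole numbers although the design had allowed for whole counts, and a signal table normalized by TMM, per the file headers, whose values are the count plus 0.0001 times 1 multiplier per library. For RIPK1, MLKL, ZBP1, FADD and CASP8 the deposited end lies 1 base beyond GENCODE 29.

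Genes were tested with edgeR 4.0.16 (R 4.3.3, limma 3.58.1) (quasi-likelihood, TMM) in a single model of all 9 libraries (6 residual degrees of freedom). Filtering at a minimum count of 10 and total of 15 left 16964 genes; the threshold was 0.05 on the Benjamini-Hochberg adjusted p. SE is the absolute log2 fold change over the square root of the F statistic and can understate error at few counts. Alternatives were DESeq2 1.42.0, other scalings and filters, 2 groups per fit, a replicate block, thinning to 15101692 counts, each library left out, and limma on log2 of the deposited table plus 1 or 0.1. Named list genes were called and had at least 5 CPM, up to 4 per list and comparison; SHARPIN, OTULIN, TNF, FASLG, ADAR, SDHA and genes named for a lost call or role were added after their values were seen. Members and lists were chosen with earlier results of these data known. The test was checked on simulated data. Some items are not reported here.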

Additional observations from a re-analysis of the deposited data

Results flagged for a closer look

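For 5 members the transcript level differed between the 2 durations of IFNβ, tested as 24 h against 6 h in the shared model (edgeR, n = 3 per group). The controls carry no stated time, so duration of IFNβ and time in culture cannot be told apart. All 5 members were called lower, where 30.6% of all genes were. ZBP1, which passed the low-count filter only through its 6 h libraries, had a log2 fold change of -4.47. MLKL was at -2.04. CASP8 was at -1.40, RIPK1 at -0.59 and FADD at -0.50. The calls of RIPK1 and FADD were lost in the deposited normalized table, at -0.30 (adjusted p = 0.153) and -0.23 (0.280). The all-gene median there was 0.22. Relative to the median of all genes RIPK1 stood at -0.51 and FADD at -0.45 in that table, and at -0.57 and -0.48 with TMM. Groups of 3 libraries were not tested for single outlying samples.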

How the results depend on the processing

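At 6 h all 6 members kept their sign under every alternative run, and in 105 of 108 single-gene results also their side of the threshold, the exceptions being FADD under plain library size scaling and in the authors' normalized table at both pseudocounts. The deposited table gave the departures in counts. At 6 h it called 1842 genes with a pseudocount of 1 and 1406 with 0.1, against 5576, and 44 and 37 list genes, against 67. Between 24 h and 6 h it called 5855 and 4827 genes, against 9704, 44 and 35 list genes, against 72, and 3 members under both, against 5. At 24 h against control it turned MLKL to 0.23 and 0.23 and FADD to 0.16 and 0.16, and between the times it turned RIPK3 to 0.10 and 0.13, as did library size only (0.091); its added constant and separate scaling make it another normalization, and the cause was not tested. CASP8 was called at 24 h in 6 alternatives and RIPK1 in 3. Leaving out each library in turn gave 4725 to 5486 genes at 6 h, 7496 to 8982 at 24 h and 8847 to 9739 between the times, and 6, 4 to 5 and 5 members. Replicate numbers did not pair the libraries (correlations of deviations -0.256 to 0.108, 1 of 9 over 0.1, and not every library was nearest its own number); with the replicate block 5148, 8132 and 9393 genes were called and no member changed its call. Depth limits ZBP1, with 4 counts in all controls together, and RIPK3, with 72.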

Other observations

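Genes of apoptosis and pyroptosis were listed as well. Of 17 tested apoptosis genes, 9 were higher at 6 h, where 17.5% of all genes were, with 3 lower and 5 not passed (median log2 fold change 0.14, against 1.46 for the necroptosis genes). At 24 h 9 were higher and 3 lower, where 24.7% and 25.3% of all genes were, and 24 h against 6 h had a median of 0.037. At 6 h with library size as the only scaling 8 were higher and 8 lower. BAK1, which permeabilises mitochondria, rose to 165 ± 1.39 CPM at 6 h, against 42.9 ± 1.42 CPM in control (SD, n = 3 each), a log2 fold change of 1.95 (SE 0.036), and was at 0.24 (SE 0.038) at 24 h. CASP9, the initiator of the mitochondrial pathway, was lower at 6 h against control at -0.35 (SE 0.098), a call lost in the deposited table, and higher at 24 h at 0.88 (SE 0.085).

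Of 15 pyroptosis and inflammasome genes 10 were tested, with 6 higher, 1 lower and 3 not passed at 6 h, where 17.5% of all genes were higher, and 7 higher, 1 lower and 2 not passed at 24 h, where 24.7% were. With library size as the only scaling 4 were higher and 3 lower at 6 h. GSDMD, a pore-forming protein, rose to 130 ± 6.34 CPM at 6 h, against 48.7 ± 1.06 CPM in control, and was at 77.1 ± 4.27 CPM at 24 h. GSDMB rose by 3.80 (SE 0.16) at 6 h and 2.91 (SE 0.17) at 24 h, and CASP4, which cleaves GSDMD, by 1.85 (SE 0.052) and 0.62 (SE 0.054). IL18, an inflammasome cytokine, fell, at -0.56 (SE 0.054) at 6 h and -0.67 (SE 0.052) at 24 h, calls that were lost in the deposited table.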
